A study of Mus musculus with 6 samples.

Results

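The MYC-MAX-MXD network is a family of basic helix-loop-helix leucine zipper transcription factors, and 8 of its genes were followed here across 6 mouse expression arrays. They were chosen by name, with earlier results of these data known: Myc, Max, Mxd1, Mxd3, Mxd4, Mxi1, Mnt and Mlx. Each was read through the probe sets that the platform annotation gives to that symbol alone. This rule gave 16 probe sets for the 8 genes, out of 20380 probe sets with 1 symbol and 12393 genes in all. The RNA came from Ba/F3, a mouse pro-B cell line that lives on interleukin 3 (IL3). One set of cells carried the empty retroviral vector pMSCV and was always kept in IL3. The other sets carried pMSCV with ETV6-PDGFRB or FIP1L1-PDGFRA, PDGF receptor fusions of myeloid neoplasms, and were selected for growth without IL3. Cells of each of the 3 lines were taken without drug or after 100 nM imatinib (Glivec), which blocks the PDGF receptor kinases and was present for 4 h, in medium with 10% serum. There was 1 array per line and treatment. The labels do not say whether a line was a clone or a pool.

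MYC cannot bind DNA alone: it pairs with MAX, and the pair binds the E-box and raises transcription of genes for ribosome production, nucleotide synthesis and growth. MXD1, MXI1, MXD3, MXD4 and MNT pair with the same partner, bind the same motif and recruit the SIN3-HDAC corepressor, so they work against MYC. MLX heads a parallel branch, in which it pairs with some MXD proteins, with MNT and with the glucose-sensing MONDO proteins. In blood cells, cytokine signals keep MYC high, and MXD genes are known to rise as cells leave the cell cycle.

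The E-box, CACGTG, is the motif that the network's own dimers bind, and the promoters of the network genes were searched for it. RefSeq promoters of the GRCm38.p6 build, from 250 bases before to 50 after each start, were at hand for Max, Mxd1, Mxd3, Mxd4, Mxi1, Mnt and Mlx. The motif reads the same on both strands. It was found for 4 of these 7 genes, against 8.09% of all 27025 genes and 7.15% of all 32851 promoters in the table. The windows are printed 5′ to 3′ on the gene's strand, with the motif in capitals, and they are shown because they place the network's own motif in the promoters of Max and Mlx, which fell with imatinib, of Mxd4, which rose, and of Mnt, which did not pass.

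Mxd4: gctgggccacCACGTGctgttgctaa
Mnt: ccacccaagcCACGTGtgcgcgcgcg
Mlx: tgggttggatCACGTGactgagcctc
Max: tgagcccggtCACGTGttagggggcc

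The Mxd4 window lies at chr5:34187914-34187939 on the minus strand and its motif begins 219 bases before the start. The Mnt window is at chr11:74830791-74830816 on the plus strand, 123 bases before the start. The Mlx window is at chr11:101087240-101087265 on the plus strand, 40 bases before the start. The Max window is at chr12:76962236-76962261 on the minus strand, and its motif begins 3 bases before the start. Other motifs were searched on both strands, and none of their matches overlapped an E-box. The forkhead motif GTAAACA, found for 4.05% of all genes, matched in 1 of the 3 Mxi1 promoters. The E2F motif GGCGGGAA, found for 2.52% of all genes, matched in the Mxd3 promoter. The STAT motif TTCNNNGAA, found for 9.55% of all genes, matched in 0 of the 7 members' promoters. These 2 further matches are shown because E2F and forkhead factors act in the cell cycle and in kinase signalling.

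Mxi1: gcgcggagaaGTAAACAaaccgcgcgc
Mxd3: gttcagcctgGGCGGGAAgaggcgggct

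The Mxi1 window is at chr19:53329454-53329480 on the plus strand, with its motif 231 bases before that start. The Mxd3 window is at chr13:55329851-55329878 on the minus strand, with its motif 137 bases before the start. A match is a run of letters and was not tested as a binding site.

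The arrays gave a linear signal per probe set. All arrays had been brought to 1 mean level, so all values are relative to a common array total. Signals were raised to a floor of 20.1 where lower, a level set from the 50th percentile of each array by taking the median. Of the 16 probe sets, 9 were above the floor on all 6 arrays, 3 on some and 4 on none. Each gene was read through its brightest probe set. Levels of different genes cannot be compared, since probe sets differ in brightness. In bulk RNA, fewer cells with a transcript and less transcript per cell cannot be told apart.

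The pro-B label was checked on marker genes. Of 18 markers of pro-B and Ba/F3 cells with a probe set, 10 were below the floor on all arrays, among them the B-lineage genes Pax5, Ebf1, Rag1, Rag2, Dntt, Vpreb1 and Blnk. Csf2rb, the signalling chain of the IL3 receptor, ranged from 1193 to 1616 and Cd79a, a B-cell receptor chain, from 37.2 to 63.0. Some markers of other lineages moved with imatinib in the fusion lines (limma adjusted p under 0.05, test described further on). Of 5 mast, basophil and eosinophil markers tested 3 rose, and of 4 erythroid markers 3 rose and 1, Tfrc, fell. Of all genes tested, 13.5% rose and 12.4% fell. Tfrc is also on the list of MYC-activated targets used below. The summed signal of 9 mast, basophil and eosinophil markers was 1170 and 1001 in vector cells without and with imatinib, 4087 and 5587 in the ETV6-PDGFRB line, and 603 and 1190 in the FIP1L1-PDGFRA line. In the ETV6-PDGFRB line Cma1 alone was 2574 and 3615 of these. Of this list, Fcer1a, Prg2, Epx and Il5ra were below the floor on all arrays. Cpa3, Gata2 and Cma1, the 3 that rose, were above it on all 6, and Mcpt8 and Hdc on some. For 6 erythroid markers the sums were 1598 and 1570, 2306 and 2567, and 1411 and 2115, with Hba-a1 and Alas2 below the floor throughout. Tfrc was the largest part of the sums without drug, and went from 1512 to 898 and from 919 to 542 in the fusion lines. Klf1, which rose, went from 313 to 943 and from 132 to 770, so the sums mix opposite changes. In the other marker lists, 1 of 2 myeloid, 1 of 1 fibroblast and 0 of 2 T and NK cell markers tested fell, and none rose. Of the 8 pro-B and Ba/F3 markers tested 1 rose, the B-cell receptor chain gene Cd79b (0.81 ± 0.09, SE, limma adjusted p = 0.00805). The part of these markers in the network's changes was not tested.

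Imatinib was followed by changes in 5 of the network genes in both fusion lines. Myc fell 3.28-fold and its partner Max fell to a lesser degree, while the MYC antagonist genes Mxd3 and Mxd4 rose more than 2-fold. Mlx fell slightly, Mxi1 and Mnt did not pass the test, and Mxd1 was below the floor on all arrays. By a 2-fold limit, with no test, Myc, Mxd3 and Mxd4 changed in each fusion line, and no network gene did in IL3-grown vector cells. The test of the difference between fusion and IL3 responses called 0 of 7 network genes and 0% of all genes.

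**Figure D1:**
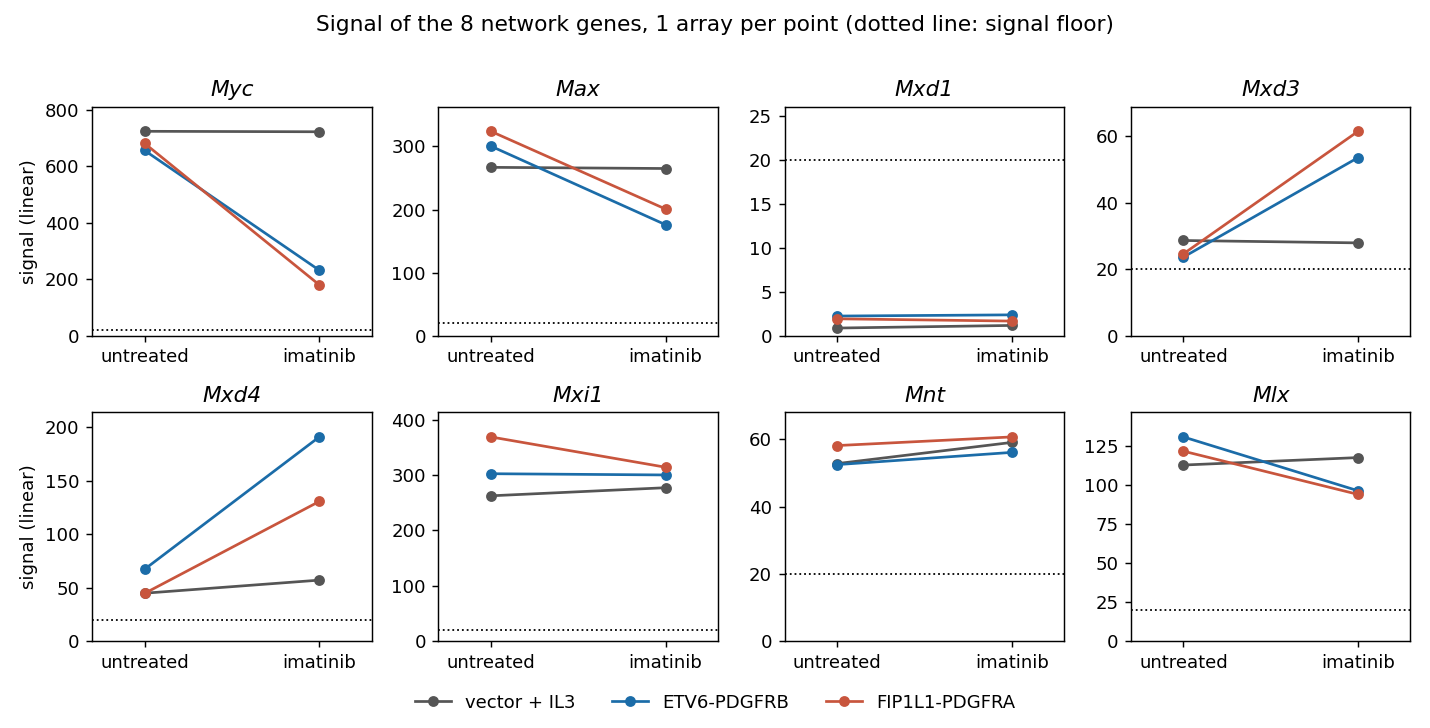
Linear signal of each network gene's brightest probe set on the untreated and the imatinib array of each line (1 array per point, lines join the arrays of a line, y axes differ and start at 0). Myc is between 656 and 724 without drug in all 3 lines and drops to 232 and 180 in the fusion lines, Mxd3 and Mxd4 move up in both fusion lines, and Mxd1 stays below the dotted signal floor.

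Myc encodes the activating member of the network. Its signal was 724 in untreated vector cells and 722 with imatinib, 656 and 232 in the ETV6-PDGFRB line, and 681 and 180 in the FIP1L1-PDGFRA line. The 2 untreated fusion arrays and the 2 arrays of IL3-grown cells lay close together, and both imatinib-treated fusion arrays were far below them. The share of all genes that split the arrays in this way was not counted, here or for the genes below. The level was 2.83-fold lower with drug in the ETV6-PDGFRB line and 3.79-fold lower in the FIP1L1-PDGFRA line.

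Max encodes the obligate partner of MYC and a partner of the MXD proteins. Its signal was 267 and 265 in vector cells without and with imatinib, 301 and 176 in the ETV6-PDGFRB line, and 324 and 201 in the FIP1L1-PDGFRA line. The treated fusion arrays were the lowest of the 6. The drop was 1.71-fold and 1.61-fold, smaller than that of Myc in both lines.

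Mxd4 encodes an MXD repressor. Its brightest probe set read 44.9 and 57.1 in vector cells, 67.2 and 191 in the ETV6-PDGFRB line, and 44.7 and 131 in the FIP1L1-PDGFRA line. Both treated fusion arrays lay above the other 4. The level with drug was 2.84-fold and 2.92-fold higher in the fusion lines, while vector cells showed a log2 ratio of 0.35. A second probe set also rose (limma adjusted p = 0.00989 in the test over probe sets), from 30.8 to 86.6 in the ETV6-PDGFRB line and from below the floor to 57.4 in the FIP1L1-PDGFRA line, at least 2.86-fold. It read 29.0 and 21.7 in vector cells, a log2 ratio of -0.42, so the probe sets disagreed on the direction there. The other 2 Mxd4 probe sets were below the floor on all arrays.

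Mxd3 encodes the MXD protein that is found in cells in S phase. Its brightest probe set read 28.6 and 27.9 in vector cells, 23.6 and 53.6 in the ETV6-PDGFRB line, and 24.6 and 61.5 in the FIP1L1-PDGFRA line. All 4 arrays outside the treated fusion cells lay near the floor, between 23.6 and 28.6, and both treated fusion arrays were above them, by 2.27-fold and 2.50-fold within their lines. A second probe set went from 25.7 to 29.7 in the ETV6-PDGFRB line and from below the floor to 52.6 in the FIP1L1-PDGFRA line, at least 2.62-fold. The third was above the floor only on the treated fusion arrays, at 32.7 and 28.3. All 3 probe sets were thus higher with drug in both fusion lines, by sizes that differed between them.

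Mlx is the partner in the MONDO branch. Its brightest probe set read 113 and 118 in vector cells, 131 and 96.3 in the ETV6-PDGFRB line, and 122 and 94.0 in the FIP1L1-PDGFRA line. The treated fusion arrays were the lowest, 1.36-fold and 1.29-fold below their untreated pairs. The second probe set had smaller log2 ratios, -0.27 and -0.25.

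Mxi1 and Mnt encode repressors whose transcripts did not pass the test described further on. Mxi1 read 263 and 277 in vector cells, 302 and 300 in the ETV6-PDGFRB line, and 369 and 314 in the FIP1L1-PDGFRA line, so the treated and untreated arrays overlapped. Its second probe set had log2 ratios of 0.25 in vector cells, 0.29 with ETV6-PDGFRB and -0.12 with FIP1L1-PDGFRA. Mnt read 52.8 and 59.1, 52.5 and 56.1, and 58.2 and 60.7 in the same order, a range in which no line stood apart. Its other probe set and the single one of Mxd1, at 0.865 to 2.37, were below the floor on all arrays.

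With the 2 fusion lines as repeats, a limma model with the line as a block tested imatinib in fusion cells over the 6808 genes that exceeded the floor on 2 or more arrays. Adjusted p under 0.05 (Benjamini-Hochberg over all genes) is the threshold for rose and fell. Of the 7 network genes tested, 2 rose, where 13.5% of all genes tested rose, and 3 fell, where 12.4% fell. The same 5 had an unadjusted p under 0.05, as did 42.7% of all genes. Myc fell by 1.71 ± 0.12 on the log2 scale (SE, 2 lines, limma adjusted p = 0.00383), the 48th lowest of the 6808 changes. Max fell by 0.73 ± 0.09 (limma adjusted p = 0.00805) and Mlx by 0.41 ± 0.09 (limma adjusted p = 0.0289). Mxd4 rose by 1.53 ± 0.14 (limma adjusted p = 0.00521), the 13th highest change. Averaging its probe sets gave 0.76, with 2 of them below the floor on all arrays and so adding no change. Mxd3 rose by 1.25 ± 0.09 (limma adjusted p = 0.00383), the 32nd highest, and by 0.43 with a floor at the 60th percentile or 0.81 with the pseudocount. The 0.43 is a lower bound, since all arrays other than the treated fusion ones lie below that floor. With scaling to the hybridization controls the change of Mlx was -0.64. Each of these 5 genes moved the same way in both lines. Mxi1 did not pass, with a log2 change of -0.12 and a 95% interval of -0.38 to 0.13 (limma adjusted p = 0.401). Mnt did not pass either, at 0.08 and -0.17 to 0.33 (limma adjusted p = 0.575), and its value turned to -0.15 with scaling to the hybridization controls.

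**Figure D2:**
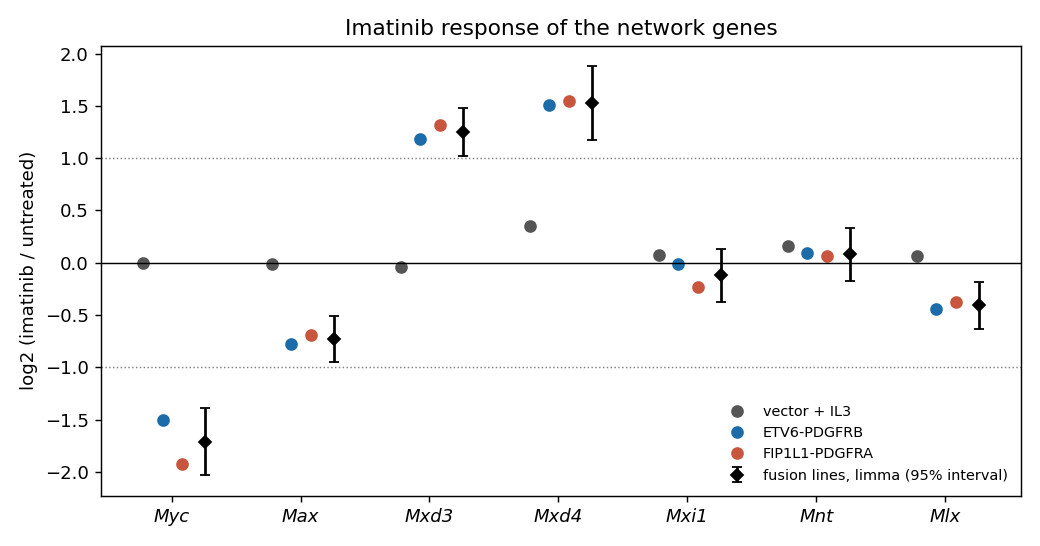
Log2 ratio of imatinib over untreated signal for the 7 network genes above the floor, by line (circles, 1 pair of arrays each), with the limma change over both fusion lines and its 95% interval (diamonds). Dotted lines mark 2-fold, which Myc passes downward and Mxd3 and Mxd4 pass upward in both fusion lines.

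These p-values rest on the spread between the fusion lines and within the IL3 pair, since no culture was repeated. The eBayes step of limma also draws each gene's variance toward a value shared by all genes tested. That shared value counts for 3.10 degrees of freedom against 2 of the gene's own, so SE and p do not show the gene's own spread alone. A fit with only 1 fusion line has 1 residual degree of freedom and called no gene of 6808, so it cannot show whether a call depends on a line. Without ETV6-PDGFRB the log2 changes were -1.92 for Myc, -0.69 for Max, -0.37 for Mlx, 1.32 for Mxd3 and 1.55 for Mxd4. Without FIP1L1-PDGFRA they were -1.50, -0.77, -0.44 and 1.18 for the first 4, and Mxd4 was 2.84-fold higher, each in the same direction. In the 4 fusion arrays alone Mlx lost its call (limma adjusted p = 0.0788) and the other 4 genes passed. Across all probe sets with 1 symbol, 4 of 12 network probe sets tested rose (background 9.99%) and 3 fell (background 11%). One of the 4, the third Mxd3 probe set, exceeded the floor on the treated fusion arrays alone, so it had to differ and its p is too small. The second probe set of Mlx (limma adjusted p = 0.0950) and that of Mxd3 (limma adjusted p = 0.106) did not pass.

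By the 2-fold limit, with no test, ETV6-PDGFRB cells had 2 network genes higher (background 1.61%) and 1 lower (2.86%), and FIP1L1-PDGFRA cells had 2 higher (2.19%) and 1 lower (2.97%). Vector cells had 0 higher (0.0749%) and 0 lower (0.0599%). The lines gave like responses for most members. The log2 ratio of Myc was higher by 0.42 in the ETV6-PDGFRB than in the FIP1L1-PDGFRA line and that of Mxi1 by 0.22, and the other 5 genes differed by at most 0.14 in size. For scale, the log2 ratios of all genes in the IL3 pair had an SD of 0.19. That is the spread of 1 ratio, and a difference between 2 independent ratios spreads more. With 1 array per group the line differences were not tested.

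The test of whether the fusion response differed from that of IL3 cells gave 0 of 7 network genes by limma, with 0% of all genes called in either direction and 17.3% at an unadjusted p under 0.05. Of the network genes 4 were under that unadjusted limit. The estimated differences were -1.71 ± 0.26 for Myc (SE, limma adjusted p = 0.163), -0.72 ± 0.19 for Max (limma adjusted p = 0.212), 1.29 ± 0.20 for Mxd3 and 1.18 ± 0.19 for Mxd4 (limma adjusted p = 0.163 for both). Myc, Mxd3 and Mxd4 passed when a pseudocount of 20 replaced the floor (limma adjusted p = 0.00412, 0.0416 and 0.0216). Calls over all genes also move with the setting of this test. Across its alternatives they ranged from 0 to 97 higher and from 0 to 189 lower.

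Without drug no network gene passed the test between fusion cells and IL3-grown cells, and with drug 4 did. Here the 2 vector arrays, with and without drug, served as repeats of IL3-grown cells. Without drug, 0 of 7 network genes passed (limma, background 1.23% higher and 0.191% lower), and 0 had an unadjusted p under 0.05, as 10.9% of all genes did. Myc differed by -0.11 with a 95% interval of -0.47 to 0.24, Max by 0.23 (-0.06 to 0.52), Mxd3 by -0.23 (-0.52 to 0.06), Mxd4 by 0.12 (-0.54 to 0.77) and Mxi1 by 0.31 (-0.02 to 0.63). The value of Mxd4 turned to -0.18 without ETV6-PDGFRB, whose untreated array was the highest of the untreated ones.

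With drug, 2 of 7 network genes were higher than in vector cells (background 9.11%) and 2 were lower (background 9.09%). At an unadjusted p under 0.05 there were 5, against 35.1% of all genes. Myc was 3.54-fold lower (log2 -1.82 ± 0.15, SE, limma adjusted p = 0.00401), the 25th lowest difference of 6808. Mxd4 was 3.12-fold higher (1.64 ± 0.27, limma adjusted p = 0.0166) and Mxd3 was 2.03-fold higher (1.02 ± 0.12, limma adjusted p = 0.00752). Max was 1.42-fold lower (-0.50 ± 0.12, limma adjusted p = 0.0383), a call lost with a floor at the 40th percentile (limma adjusted p = 0.0590) and with scaling to the hybridization controls (limma adjusted p = 0.0543). Averaged probe sets gave 0.78 for Mxd4, 2 of them below the floor on all arrays. A floor at the 60th percentile, above the vector values of Mxd3, gave at least 0.43 for that gene. Without ETV6-PDGFRB the fit called no gene of 6808. Without FIP1L1-PDGFRA Myc and Mxd3 passed, while Mxd4 (limma adjusted p = 0.0550) and Max (limma adjusted p = 0.0503) did not. The vector arrays are shared by both comparisons, and IL3 supply and selection cannot be told apart from the fusion gene in either.

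**Figure D3:**
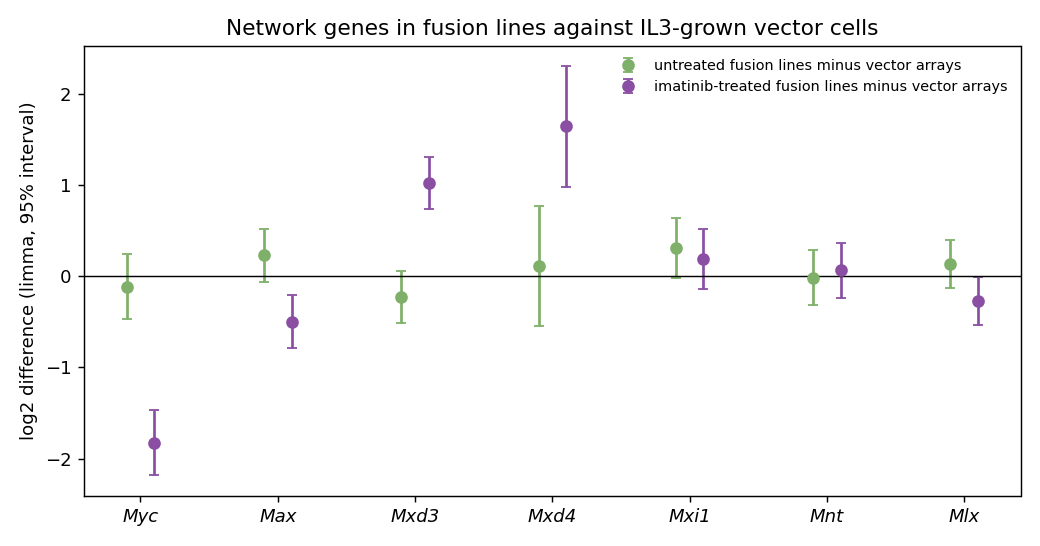
Log2 difference of the untreated and of the imatinib-treated fusion arrays (2 each) from the 2 vector arrays, with 95% limma intervals, for the 7 network genes above the floor. All untreated intervals include 0, whereas those of treated Myc, Max and Mlx lie below 0 and those of treated Mxd3 and Mxd4 above it.

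Beyond the 8 genes, the extended network was read through 9 further genes, of which 7 were tested, 0 rose and 1 fell, a share near that of all genes (13.5% rose and 12.4% fell). The one that fell was Mga, which encodes a MAX-binding T-box protein, by 0.41 ± 0.10 (SE, limma adjusted p = 0.042). Its signals were 56.0 and 49.8 in vector cells, 44.5 and 34.9 in the ETV6-PDGFRB line and 49.9 and 35.9 in the FIP1L1-PDGFRA line. The call of Mga held with quantile normalization and with scaling to the hybridization controls and in no other alternative. Mycl, a MYC paralogue, and Mlxipl, a MONDO gene, were below the floor on all arrays. The other MONDO gene, Mlxip, ranged from 74.0 to 85.5 and did not pass (limma adjusted p = 0.934).

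Mycn, the MYC paralogue of neural and stem cells, was singled out after its values were seen. Its brightest probe set read 1915 and 2032 in vector cells, 1082 and 1009 in the ETV6-PDGFRB line, and 623 and 658 in the FIP1L1-PDGFRA line. The arrays of each line lay close together and the 3 lines were apart from each other. The log2 change with imatinib was -0.01, with a 95% interval of -0.26 to 0.24 (limma adjusted p = 0.942), so for this probe set a change of the size seen for Myc lies outside the interval. Untreated fusion cells had 2.40-fold less Mycn than vector cells (limma adjusted p = 0.176, not passed), and treated ones 2.42-fold less (log2 -1.28 ± 0.31, limma adjusted p = 0.0391). The probe sets disagreed on the FIP1L1-PDGFRA level: the second one read 292 and 246, 170 and 139, and 255 and 243 in the same order. The dimmest one read 39.9 and 47.7, 32.8 and 25.3, and 36.9 and 29.6. Both were lower with imatinib in each fusion line, with log2 ratios of -0.30 and -0.07 for the second and -0.38 and -0.32 for the dimmest, so the near-zero change holds for the brightest probe set.

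**Figure D4:**
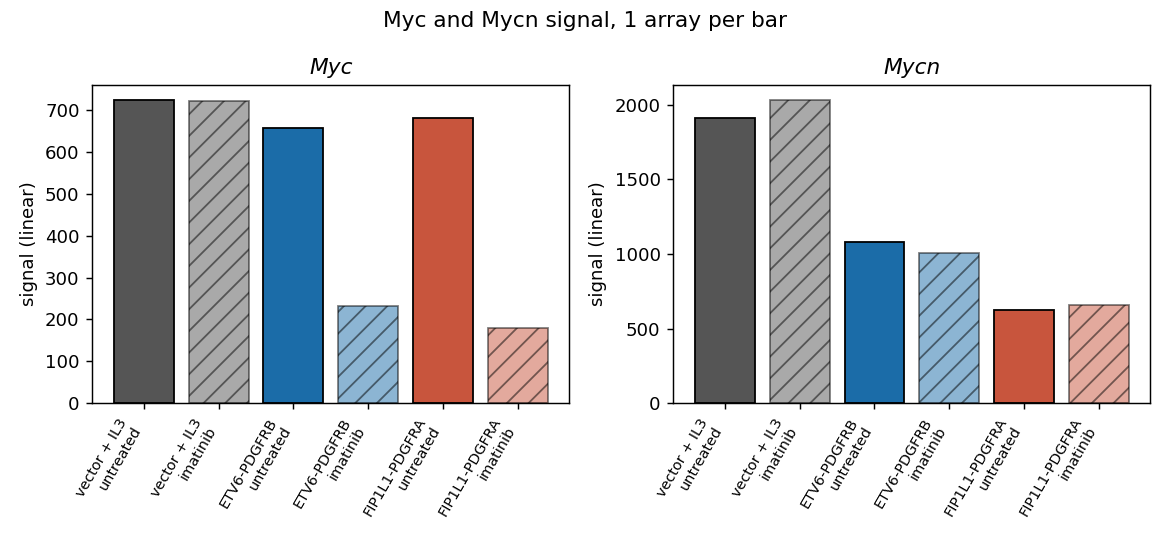
Linear signal of Myc and of the brightest Mycn probe set on each array (bars start at 0, hatched bars are imatinib arrays, panels have separate axes). Myc drops only on the 2 treated fusion arrays, whereas this Mycn probe set differs by line and is alike within each pair.

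The corepressor that MXD proteins recruit was read through 12 subunit genes, of which 4 rose, 0 fell and 8 did not pass, with a median log2 change of 0.24 against 0.04 for all genes tested (13.5% rose and 12.4% fell). The PHD finger genes Ing2 (0.79 ± 0.11, SE, limma adjusted p = 0.0104) and Ing1 (0.63 ± 0.08, limma adjusted p = 0.0101) rose, as did Arid4b, which encodes an ARID protein of the complex (0.70 ± 0.11, limma adjusted p = 0.0137). Ing1 went from 168 to 260 and from 195 to 302 in the fusion lines, and was 209 and 204 in vector cells. Averaged probe sets gave 0.28 for Arid4b, which then lost its call (limma adjusted p = 0.0614), and scaling to the hybridization controls gave 0.40 for Ing1. That scaling gave 3 that rose and 1 that fell, where 395 of all genes rose and 1880 fell.

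Of 16 coactivators and chromatin partners of MYC tested, 1 rose, 0 fell and 15 did not pass, with a median of -0.05. The one that rose was Kat2b, a histone acetyltransferase gene (0.38 ± 0.10, limma adjusted p = 0.0437). It lost its call with a floor at the 40th percentile, averaged probe sets and the 4 fusion arrays alone (limma adjusted p from 0.0723 to 0.0909). The call was also lost without a filter on low values (limma adjusted p = 0.170). With scaling to the hybridization controls the change of Kat2b was 0.15 (limma adjusted p = 0.318). For this list, scaling to the hybridization controls gave 0 that rose and 5 that fell. Of all genes 395 rose and 1880 fell with that scaling, against 916 and 841 in the main test. Among 17 genes that set the turnover of the MYC protein or transcript, 0 rose and 3 fell (12.4% of all genes fell), with a median of -0.04. With a floor at the 40th or 60th percentile 1 fell, and with scaling to the hybridization controls or an eBayes trend 6 fell. Of all genes, 626 and 888 fell with these floors, 1880 with that scaling and 1028 with the trend. The 3 were the deubiquitinase gene Usp36 (-0.88 ± 0.15, limma adjusted p = 0.0165), Fbxw7 (-0.60 ± 0.14, limma adjusted p = 0.0363), which encodes the ubiquitin ligase subunit that marks MYC for destruction, and Zfp36, an mRNA decay gene (-0.62, limma adjusted p = 0.0228). Zfp36 was below the floor on both vector arrays, which adds no spread and makes its p too small. Fbxw7 and Zfp36 lost their calls with a floor at the 40th percentile (limma adjusted p = 0.0669 and 0.0574), and Zfp36 also in the 4 fusion arrays alone (limma adjusted p = 0.0610). A floor at the 60th percentile left Usp36 at -0.0567 (limma adjusted p = 0.685). Its treated fusion values (22.7 and 22.4) and its untreated ETV6-PDGFRB value (37.5) lie below that floor. The treated ones are also near the main floor. Averaged probe sets gave -0.44 for Usp36. Fbxw7 read 128 and 86.9 in the ETV6-PDGFRB line and 164 and 106 in the FIP1L1-PDGFRA line, and 134 and 171 in vector cells.

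Many genes that MYC is known to activate fell: 26 of the 44 tested did so, where 12.4% of all genes fell. Of the rest, 0 rose and 18 stayed short of the threshold, and the median of all 44 was -0.43. This list, like the others, was chosen with earlier results of these data known. Its share is therefore not an independent test. Within lines the list had median log2 ratios of -0.49 for the ETV6-PDGFRB pair, -0.36 for the FIP1L1-PDGFRA pair and -0.01 for vector cells. The largest changes were those of the spermidine synthase gene Srm (-1.62 ± 0.09, SE, limma adjusted p = 0.00269), the RNA polymerase I subunit gene Polr1b (-1.50 ± 0.08, limma adjusted p = 0.00269) and the nucleolar gene Nop58 (-1.43 ± 0.11, limma adjusted p = 0.00383). Polr1b went from 117 to 41.5 and from 135 to 47.9 in the fusion lines and was 154 and 157 in vector cells. Members that did not pass included Cdk4, the G1 kinase gene, at 0.10, the nucleolar gene Npm1 at 0.15 and Ldha of glycolysis at -0.18, which were singled out after their values were seen. With the 4 fusion arrays alone 15 of the list fell, with scaling to the hybridization controls 35 did, and without a filter on low values 3 did. Of all genes 471, 1880 and 59 fell in the same order, against 841 in the main test.

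Genes that MYC is known to repress moved both ways, with 7 of 17 that rose, 2 that fell and 8 that did not pass, and a median of 0.36, where 13.5% of all genes rose. The members with the largest rises were the growth arrest gene Gadd45a (1.33 ± 0.17, SE, limma adjusted p = 0.00956), Cdkn1b, which encodes the cell cycle inhibitor p27 (1.23 ± 0.21, limma adjusted p = 0.0180), and Hbp1, which encodes an HMG-box repressor (1.21 ± 0.11, limma adjusted p = 0.00535). Hbp1 went from 115 to 289 and from 125 to 264 in the fusion lines and was 137 and 152 in vector cells. Cdkn1a, which encodes the inhibitor p21, fell by 1.10 ± 0.09 (limma adjusted p = 0.00449), the opposite of the other CDK inhibitor gene named. With averaged probe sets the changes of Cdkn1b and Hbp1 were 0.61 and 0.80, and a floor at the 60th percentile gave 0.69 for Gadd45a. The 0.69 is a lower bound. On the vector and untreated fusion arrays Gadd45a read 22.4 to 28.8, below that floor and near the main one. Scaling to the hybridization controls gave 5 that rose and 5 that fell, where 395 of all genes rose and 1880 fell. Of 8 glucose response genes of the MLX-MONDO branch, 1 rose and 2 fell, with a median of -0.03, against 13.5% and 12.4% of all genes. These were Klf10 (0.88 ± 0.13, limma adjusted p = 0.0125), a zinc finger factor gene, the fatty acid synthase gene Fasn (-0.56 ± 0.10, limma adjusted p = 0.0185) and Pfkfb3, a glycolytic regulator gene. Fasn lost its call in the 4 fusion arrays alone (limma adjusted p = 0.0566). Pfkfb3 read 44.6 and 43.1 in vector cells and 41.1 and 35.3 on the untreated fusion arrays, and was below the floor on both treated ones. Its fitted change moves with the floor, its p (limma adjusted p = 0.00712) is made too small by the floored values, and it lost its call with a floor at the 60th percentile. Txnip, the best known target of this branch, read 433 and 702 in the ETV6-PDGFRB line, 692 and 786 in the FIP1L1-PDGFRA line and 643 and 683 in vector cells and did not pass (limma adjusted p = 0.0789); it was singled out after its values were seen.

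**Figure D5:**
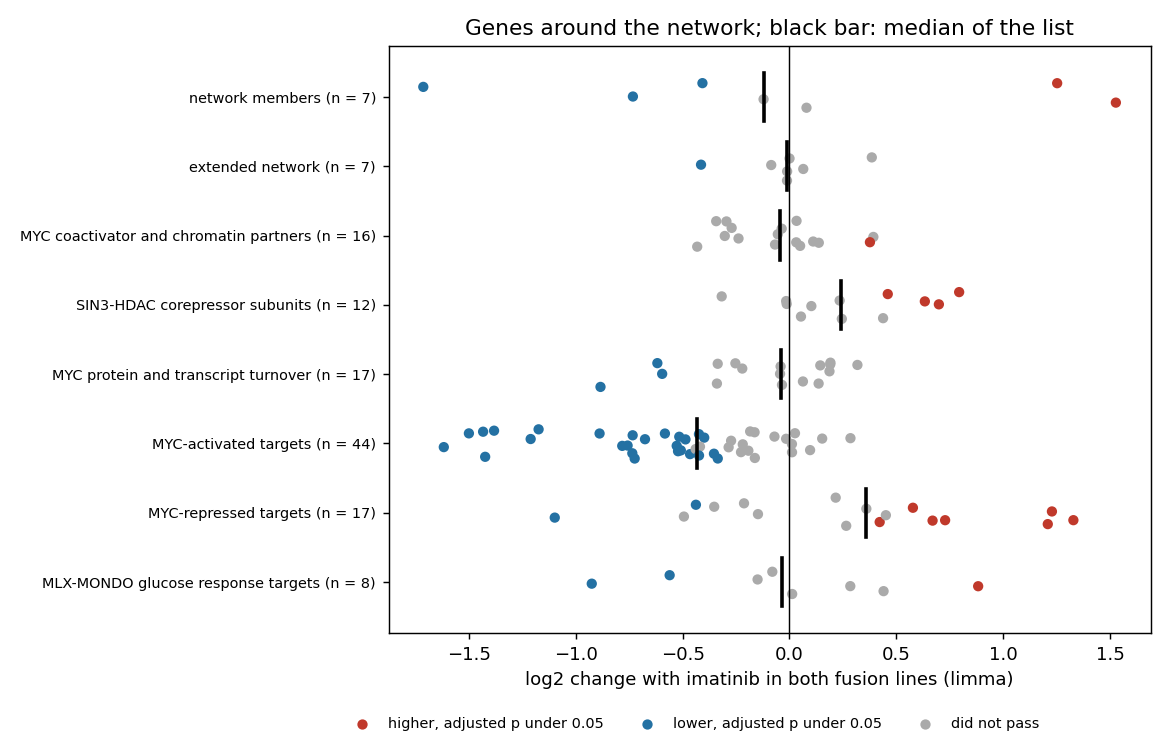
Limma log2 change with imatinib over both fusion lines for each gene tested in the network and in the lists around it (1 point per gene, coloured by call, black bars are list medians). MYC-activated targets lie mostly left of 0, with a median of -0.43, and SIN3-HDAC subunits and MYC-repressed targets have medians of 0.24 and 0.36.

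The genes whose signal followed that of Myc most closely were found among 930 genes above the floor on all arrays with a log2 range of at least 1. Pearson r over the 6 arrays was 0.996 for Yrdc, a tRNA modification gene, 0.996 for Septin9, of the septin cytoskeleton, 0.995 for Spred1, an inhibitor of RAS-ERK signalling, 0.994 for Nop2, a nucleolar RNA methyltransferase gene, and 0.992 for Ppan, a ribosome assembly gene. Ppan read 257 and 265 in vector cells, 214 and 83.8 in the ETV6-PDGFRB line, and 212 and 75.3 in the FIP1L1-PDGFRA line, the same split of arrays as Myc. For Mxd4 the closest were Spice1, a spindle gene, Ube2t, a ubiquitin-conjugating enzyme gene of DNA crosslink repair, Tango2, Tcf19 and the lipid droplet gene Plin2, with r from 0.991 to 0.992. Ube2t read 118 and 120, 138 and 270, and 105 and 223 in the same order. Within the network, r was 0.91 between Myc and Mlx, 0.89 between Myc and Max, -0.97 between Myc and Mxd3, -0.92 between Myc and Mxd4, and -0.15 between Myc and Mxi1. All these correlations are over the same 6 arrays, 2 of which carry most of the change, and describe these arrays only.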

How the data were processed

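Each array's deposited file gave linear intensity values for its probe sets. The submitters' processing notes name GCOS 1.4.0 and MAS5 as the tools the authors used. Detection calls and background settings were not used here, and the sources used here name no genome build for the arrays. Promoters came from RefSeq's GRCm38.p6 table. Precision is limited by the number of arrays (6). Probe sets were named from the platform annotation (691 had several symbols and named no gene). Signals were floored, put on a log2 scale and fitted with limma 3.58.1 (R 4.3.3, lmFit and eBayes). Tables were made with Python 3.11.15, pandas 2.3.3 and numpy 2.4.6. The scripts were tested on simulated data. A log2 ratio was computed where at least 1 array exceeded the floor, and is a bound where only 1 did. The 8 members, the lists and the tests were chosen with earlier results of these data known, and only Tfrc is on 2 of the lists. Named genes were all members, and of each list the 3 largest changes that passed plus the largest that passed in the other direction. For Myc and Mxd4 the 5 most alike genes were named. Alternatives were other floors (40th and 60th percentile), a pseudocount of 20, quantile or hybridization-control scaling (18 probe sets), the mean of a gene's probe sets, an eBayes trend, no filter, fewer lines and a 1.5-fold limit.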

Additional observations from a re-analysis of the deposited data

Results flagged for a closer look

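The fusion lines had imatinib log2 ratios of opposite sign for 3 of the features described. The second Mxi1 probe set was at 0.29 with ETV6-PDGFRB and -0.12 with FIP1L1-PDGFRA. The brightest Mycn probe set was at -0.10 and 0.0795, and Mlxip at -0.0836 and 0.0604. The other 2 Mycn probe sets were negative in both lines, at -0.30 and -0.0708 and at -0.38 and -0.32. These line differences were not tested. The brightest Mycn and Mlxip values are smaller than the SD of 0.19 of all genes in the IL3 pair.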

How the results depend on the processing

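For imatinib in fusion lines, the counts of 2 network genes that rose and 3 that fell stayed within 1.5 times in all alternatives except no filter on low values, which gave 0 and 0 (limma adjusted p of the 5 genes 0.0562 to 0.112), and leaving out a fusion line, which gave 0 to 0 in both directions. The cause of the first was not tested. The latter leaves 1 residual degree of freedom, called no gene of 6808 and says nothing of stability, and the lone line is assumed to vary like the IL3 pair. Mlx also lost its call under a 40th percentile floor (limma adjusted p = 0.0539). For all genes, 916 rose and 841 fell, against 588 and 626 under a 40th percentile floor, 395 and 1880 with hybridization-control scaling, 418 and 471 in the 4 fusion arrays and 48 and 59 without a filter. Hybridization-control scaling moved the median log2 ratio of all genes to -0.14 for ETV6-PDGFRB and to -0.21 for FIP1L1-PDGFRA, from 0.03 and 0.04.

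The difference from IL3 cells gave 2 network genes higher and 1 lower with the pseudocount, against 0 and 0. Across the alternatives of that test, 0 to 97 of all genes were higher and 0 to 189 lower. For treated fusion lines against vector arrays, the 2 lower network genes became 1 under a 40th percentile floor, with hybridization-control scaling and without a filter, where the 2 higher also became 1, and leaving out a fusion line gave 0 to 1 in each direction. By the 2-fold limit, the 2 higher network genes in ETV6-PDGFRB cells became 1 under a 60th percentile floor, the pseudocount and hybridization-control scaling, and 0 when probe sets were averaged. Those in FIP1L1-PDGFRA cells became 1 under a 60th percentile floor, the pseudocount and averaged probe sets. The averages of Mxd4 take in 2 probe sets that were below the floor on all arrays. A 1.5-fold limit gave 2 lower network genes in place of 1 in both lines. Values that changed sign, none of them past the threshold, were Mnt with hybridization-control scaling (-0.15 for imatinib by gene and by probe set, 0.0076 untreated and -0.14 treated against vector arrays) and, with a fusion line left out, untreated Mnt (-0.0896 to 0.0582) and untreated Mxd4 (-0.18 to 0.41), lower end of Mxd4 and upper end of Mnt without ETV6-PDGFRB, as well as Mxi1 treated against vector with hybridization-control scaling (-0.0187) and its second probe set for imatinib (-0.15). The imatinib test is itself paired, with the line as its block. Signals near the floor, as for Mxd3, limit the precision of its fold.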
